A study of Danio rerio with 18 samples.

Results

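Keratin probe sets of a zebrafish Affymetrix array are described here across 18 arrays of whole embryos. A probe set is a group of short array probes that together measure one transcript. The 36 keratin probe sets were taken from 15502 probe sets (control probe sets left out). Of these, 35 have the word keratin or cytokeratin in their description in the authors' 48-hour table, and 1, krt15 (Dr.25556.1.S1_at), was added by its identifier. krt1-19d (Dr.2377.1.A1_at) was also named in the rule, although its description alone would have brought it in. The rule itself uses descriptions and identifiers only. It was written with earlier results of these data known, including those of krt15 and krt1-19d.

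At the 1-cell stage, embryos of the AB wildtype strain received a morpholino, an antisense oligomer that blocks a transcript. It was directed against cardiac troponin T2 in the morphant groups. The treatment text gives the controls a control morpholino, whereas their titles say only wildtype AB, so the 2 labels differ. RNA of whole embryos was taken at 36, 48 and 60 hours after fertilisation, with 3 arrays in each of the 6 groups of time and kind of embryo, and the treatment text gives 32 hours for the first time. Parent pairs contributed equally to every group, and all groups share the strain. That the controls were injected rests on the treatment text. Loss of cardiac troponin T, a part of the thin filament of heart muscle, leaves a heart that does not beat.

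Keratins are the intermediate filament proteins of epithelia. A filament is built from pairs of 1 type I (acidic) and 1 type II (basic) chain, and it is anchored to desmosomes between cells and to hemidesmosomes on the basement membrane. The skin of an embryonic fish is a thin epithelium with an outer periderm over basal keratinocytes, and both layers make keratins in large amounts. Keratin 8 and keratin 18 are the classical pair of simple epithelia.

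The 36 probe sets fell in 18 UniGene clusters, the transcript groupings from which the array was designed. A member was counted as type II if its gene was krt4, krt5 or krt8 or its description said type II, which gave 7. The other 29 were counted as type I by default, including members whose names are uncertain. The type II members were 4 probe sets of krt4, a gene of the outer epidermal layer, 2 of krt8 and 1 of krt5, an epidermal keratin that the array calls ckii. The type I members included 5 probe sets described as cyt1, a type I cytokeratin of the outer embryonic epithelium, and 1 each of krt18a.1, krt15, krt1-19d and cki, a type I epidermal keratin. Another 7 shared cluster Dr.12425. Names were less certain elsewhere. The descriptions of 14 members rest on similarity to a human keratin, such as keratin 9 for Dr.24899.1.A1_at and keratin 10 for Dr.24487.1.A1_at, which the authors' list calls zgc:136930. Dr.24292.6.A1_at is described as cyt1 but listed by the authors as similar to a zinc finger protein, and the clone of both Dr.12425.5 probe sets is a synonym of the ferritin gene fthl28. In the RefSeq gene order of the GRCz12tu assembly, krt8 lay directly beside both krt5 and krt18a.1, with 0 protein-coding genes between, and 3 such genes lay between krt1-19d and cyt1.

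Values are log2 levels after quantile normalisation, which gives every array the same distribution. A probe set was tested if its mean over all arrays was above the 25th percentile (0.62), which 34 of the 36 members were. Dr.951.1.A1_at, whose clone belongs to krt93, had a mean of 0.58, and Dr.9966.1.S1_at, similar to human keratin 14, had a mean of -2.87. Neither was tested. Differences were tested with limma over all 11626 probe sets, with Benjamini-Hochberg adjustment over that whole table, and a probe set is said to have changed if its adjusted p was under 0.05. The labels do not say that the arrays of a group came from separate clutches, so p-values measure the spread between these arrays.

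As deposited, the arrays differed in their median log2 value from 1.19 to 3.86. Replicate 1 of the 36-hour controls (1.48) and replicate 2 of the 60-hour controls (1.19) had the lowest medians. The counts and calls between morphants and controls that changed without them are given beside the results. tnnt2a (Dr.14260.1.S1_a_at), the target, passed at no time, with differences of -0.02, -0.02 and -0.31 log2 (limma adjusted p 0.992, 0.999 and 0.744). A morpholino need not lower its target's RNA, so this neither checks nor contradicts the labels. Markers of muscle, heart, red cells, neurons and epidermis were present on the arrays. Of the lens markers only cryaa could be matched by name to a probe set, at a mean of 0.71. In whole embryos, fewer cells of a type and less RNA per cell cannot be told apart.

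The 10 members with the highest signal spanned means of 8.03 to 10.1 over the 18 arrays. They were 2 probe sets of krt4 (Dr.4387.1.S1_at and Dr.4387.2.S1_at), cyt1 (Dr.24292.1.S1_x_at), krt8 (Dr.1282.1.S1_at), krt5, 2 of cluster Dr.5531, similar to human keratin 15, and 3 of cluster Dr.12425. Signals of different probe sets depend on their probes and do not rank transcript amounts. krt4 (Dr.4387.1.S1_at) stayed between 9.92 and 10.23 on every array, in both kinds of embryo. It ranked between 4 and 21 in signal on the arrays. Quantile normalisation gives a rank the same value on every array, so this narrow range partly follows from the scaling and does not show steady RNA. krt8 (Dr.1282.1.S1_at) stayed between 8.04 and 8.74, krt5 between 7.44 and 8.56, and krt18a.1 between 7.01 and 7.88.

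At 36 hours the keratins that stood apart in morphants were type I, and most were lower. krt15, a type I keratin that in human skin belongs to basal keratinocytes, read 2.55, 0.31 and 1.19 in the controls and -1.24, -1.85 and -1.37 in the morphants. Every morphant array lay below every control array. The keratin-9-like Dr.24899.1.A1_at read 3.27, 2.84 and 3.25 in controls against 1.43, 0.78 and 0.52 in morphants, again without overlap. The keratin-10-like Dr.24487.1.A1_at read 5.51, 4.82 and 5.09 in controls against 3.92, 3.66 and 3.92 in morphants. These 3 were called lower. 1 member was called higher, the cyt1 probe set Dr.24292.5.S1_at, with 6.27, 5.69 and 5.67 in controls and 7.48, 6.89 and 7.41 in morphants. At 48 hours it read 6.13 to 6.23 in controls and 6.46 to 6.82 in morphants, and at 60 hours 5.36 to 6.53 and 5.9 to 6.85, where it did not pass.

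The difference of krt15 was -2.84 ± 0.43 log2 (SE, limma adjusted p 0.00714). The morphant mean, -1.49, was under the level for testing, so no fold is given. Dr.24899.1.A1_at differed by -2.21 ± 0.28 (limma adjusted p 0.00168), with morphant arrays near the level for testing and deposited standard errors there of 1.32 to 1.71, so no fold is given for it either. Dr.24487.1.A1_at differed by -1.31 ± 0.17 (2.48-fold lower, limma adjusted p 0.00203). The cyt1 probe set differed by 1.38 ± 0.27 (2.61-fold higher, limma adjusted p 0.0383). Over the array, 0.181% of tested probe sets were called at this time in either direction (0.0946% higher and 0.0860% lower), against 4 of 34 members (1 higher and 3 lower). Without krt15 and krt1-19d, the pair named in the rule, it was 3 of 32. The 34 differences ran from -2.84 to 1.38, with quartiles of -0.46 and 0.07. Their median was -0.10, against 0.005 over all tested probe sets, and 10 of the 34 differences were above 0.

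These calls depend on pooling the spread over all 18 arrays and on normalisation: no member passed with values as deposited, with only the 36-hour arrays fitted, or with weights from the deposited standard errors. krt15 lay under the filter when only the 36-hour arrays were fitted, so it was not tested there. The size of the 3 falls moved little (krt15 to -2.44 with values as deposited). The call of the cyt1 probe set was also lost with arrays centred on their medians (0.99, limma adjusted p 0.347), with cyclic loess (1.27, 0.0966) and with no intensity trend (1.38, 0.145), and in 11 of the 18 fits that left out 1 array. Without replicate 1 of the 36-hour controls, the same 4 members were called: krt15 differed by -2.25, Dr.24899.1.A1_at by -2.13, Dr.24487.1.A1_at by -1.11 and the cyt1 probe set by 1.56. The deposited standard errors of krt15 on the morphant arrays, 1.98 to 2.54, were larger than those on the control arrays, 0.97 to 1.3. With arrays of the same time and number as a block, Dr.5531.3.S1_at also fell, by 0.55 ± 0.09 (limma adjusted p 0.0332).

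In the authors' deposited table for 36 hours, the log2 ratios ran the same way for these members: -1.66 for krt15, -2.59 for Dr.24899.1.A1_at, -1.18 for Dr.24487.1.A1_at and 1.17 for the cyt1 probe set. That table comes from the same arrays. For all 34 tested members, the sign was shared by 30 at 36 hours, 19 at 48 hours and 27 at 60 hours. Many of the authors' ratios were near 0, where a sign says little. Their median over all tested probe sets was -0.15 at 48 hours. The share of signs over all tested probe sets was not computed, so these counts are no result about keratins.

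At 48 hours 1 member passed, krt1-19d, a type I keratin. It read -2.55, -2.59 and -2.95 in controls and 1.28, 1.18 and 2.01 in morphants. The groups did not overlap, and the difference was 4.19 ± 0.50 log2 (limma adjusted p 0.000738). The control mean is far under the level for testing, and the deposited standard errors there were 2.51 to 2.66, so the size is poorly measured and no fold is given. With weights from these standard errors the adjusted p was 0.79. On the array 0.568% of tested probe sets were called in either direction at 48 hours, against 1 of 34 members, or 0 of 32 without the pair named in the rule (6 of these 32 had an unadjusted limma p under 0.05). The share of all tested probe sets under that unadjusted level was not computed, so the count of 6 is no result about keratins.

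The control value of krt1-19d at 48 hours was a dip. A dip with both steps called was found in 6.14% of all tested probe sets in controls and 0.413% in morphants. Controls read 4.36, 1.68 and 2.75 at 36 hours and 4.55, 5.07 and 3.60 at 60 hours, and morphants read 3.93 to 4.29 and 3.10 to 3.50 at those times. Morphants were also lowest at 48 hours, with means of 4.16, 1.49 and 3.32 at 36, 48 and 60 hours. Their fall and rise were not both called. At 36 and 60 hours morphants differed from controls by 1.23 and -1.08 log2, which did not pass (limma adjusted p 0.334 and 0.27). The other probe set of its cluster, Dr.2377.2.S1_at, showed no such dip: controls read 3.18 to 3.94 at 48 hours and 2.65 to 4.22 at 36 hours, a difference of 0.08 ± 0.39 (limma adjusted p 0.901). Both probe sets are described by similarity to human keratin 19. In the authors' deposited table for 48 hours, the log2 ratio of krt1-19d was 2.49 and that of Dr.2377.2.S1_at was 0.00.

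With same-numbered arrays of the same time as a block, 2 members passed at 48 hours, where 93 tested probe sets passed against 66 without the block. Beside krt1-19d this was Dr.12425.5.S1_at, which read 1.32, 1.97 and 0.47 in controls and 2.88, 3.72 and 3.91 in morphants and differed by 2.25 (limma adjusted p 0.0134). The other probe set with that clone, Dr.12425.5.S1_a_at, read 7.10 to 7.43 in controls and 7.60 to 7.72 in morphants and was not called in either fit. Without replicate 1 of the 36-hour controls, 3 members passed at 48 hours: Dr.12425.5.S1_at, krt15 and krt1-19d. Fits that left out 1 array called 21 to 171 probe sets over the array at this time. The 34 differences at 48 hours ran from -1.74 to 4.19, with quartiles of -0.05 and 0.32, and their median was 0.10 against 0.012 over all tested probe sets.

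At 60 hours 2 members passed, in opposite directions. The cyt1 probe set Dr.24292.1.S1_x_at read 9.75, 9.65 and 9.76 in controls, while the lowest of the 3 morphant arrays read 10.08 and their mean was 10.14, a difference of 0.42 ± 0.08 (1.34-fold higher, limma adjusted p 0.0197). Dr.24487.1.A1_at read 7.64, 7.48 and 7.30 in controls and 6.33, 6.62 and 6.88 in morphants, a difference of -0.86 ± 0.17 (1.82-fold lower, limma adjusted p 0.0278). On the array 0.920% of tested probe sets were called in either direction, 0.680% higher and 0.241% lower. Dr.24899.1.A1_at differed by -1.11 ± 0.28, which did not pass (limma adjusted p 0.0706). It was called with cyclic loess, with arrays centred on their medians, with weights from the standard errors and with only the 60-hour arrays fitted. The 34 differences ran from -1.13 to 1.38, with quartiles of -0.60 and 0.14, and their median was -0.12 against -0.004 over all tested probe sets.

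Without replicate 2 of the 60-hour controls, neither call remained and 0 members passed, with differences of 0.39 and -0.85 (limma adjusted p 0.101 for both). Both calls were also lost without replicate 1 of the 60-hour controls (0.44 and -0.78, limma adjusted p 0.0529 and 0.124) and without replicate 2 of the 60-hour morphants (0.39 and -0.87, 0.155 and 0.161). Without replicate 3 of the 60-hour morphants the cyt1 call alone was lost. Without replicate 1 of the 36-hour controls, 5 members passed at 60 hours. Beside the 2 reported, these were Dr.12425.1.S1_at, krt18a.1 and Dr.24899.1.A1_at. Fits that left out 1 array called 10 to 700 probe sets over the array at this time. The direction of cyt1 Dr.24292.1.S1_x_at also depended on scaling, at -0.06 when arrays were centred on their medians. Among 14 markers of other tissues, 2 passed at 60 hours and 0 at the earlier times: myl7 of heart muscle was higher (0.68, limma adjusted p 0.0453) and snap25b of neurons lower (-0.74, 0.0453). The other heart marker, cmlc1, went the other way (-0.24). Of the other neuron markers, elavl3 and snap25a were above 0 (0.97 and 0.18) and gap43 below (-0.13). None of these others passed. The mean level of the 2 heart markers was 4.68 to 5.06 in controls and 5.01 to 5.18 in morphants, and that of the 4 neuron markers 5.67 to 5.84 and 5.32 to 6.10. Their part in the keratin results was not tested.

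No type II keratin passed in any comparison of morphants with controls: 0 of 7 at 36, 48 and 60 hours by limma. On the array 0.181%, 0.568% and 0.920% of tested probe sets were called at these times. A list of 7 would hold few calls in any case, so 0 of 7 is no result about type II keratins. At an unadjusted p under 0.05 the counts were 0, 0 and 1. The medians of the 7 differences were -0.03, -0.00 and 0.01 log2. Of the 27 tested members counted as type I by default, 4, 1 and 2 passed, with medians of -0.17, 0.13 and -0.14. Whether the types differ was not tested, since members of a cluster share sequence. Of 9 tested genes of other intermediate filament proteins, 0 passed by limma at each time, with 0, 2 and 2 at an unadjusted p under 0.05. With so few calls on the array, 0 of 9 is no result about these genes either. The share of all tested probe sets under the unadjusted level was not computed, so the unadjusted counts show nothing particular to either list.

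The difference between morphants and controls itself changed with time for 2 members. In an F-test over the 3 times, 0.0258% of tested probe sets, 3 in all, passed, and 2 of these 3 were krt1-19d (limma adjusted p 0.0179) and krt15 (0.018). Without this pair, which the rule names, 0 of 32 members passed. For krt15 the difference rose by 4.35 ± 0.61 log2 from 36 to 48 hours, from -2.84 to 1.51. For krt1-19d it fell by 5.27 ± 0.71 from 48 to 60 hours. Dr.24487.1.A1_at and Dr.24899.1.A1_at, both lower in morphants at 36 hours, did not pass (limma adjusted p 0.102 each). Their 48-hour differences were 0.09 and 0.10 log2, which did not pass (limma adjusted p 0.958 and 0.976). The calls of krt1-19d and krt15 were lost in 9 and 10 of the 18 fits that left out 1 array, in both cases without replicate 2 of the 60-hour controls. krt15 and krt1-19d were picked for this work with their earlier results known, so these tests are not independent evidence for them.

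Between 36 and 60 hours keratins changed in both kinds of embryo, and most of the called changes were rises of members counted as type I. In controls Dr.24899.1.A1_at rose from a mean of 3.12 to 7.08 (15.6-fold), with 5.34 to 6.31 at 48 hours. In morphants it rose from 0.91 to 5.97, a rise of 5.06 log2 from a level near that for testing, so no fold is given. krt15 rose by 3.19 ± 0.43 in controls (limma adjusted p 6.25e-05) and by 5.03 ± 0.43 in morphants (4.43e-07). Its lowest control array at 36 hours, 0.31, was under the level for testing, so no fold is given for krt15. Dr.24487.1.A1_at rose by 2.33 ± 0.17 (5.04-fold) and 2.78 ± 0.17 (6.87-fold).

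A second group rose by about the same amount in controls. Dr.5531.1.S1_a_at, similar to human keratin 15, went from 8.05, 8.06 and 8.17 to 9.22, 9.08 and 9.04, a rise of 1.02 ± 0.10 (2.03-fold). Its partner Dr.5531.3.S1_at rose by 1.09 ± 0.12. Dr.12425.1.S1_at and Dr.12425.1.S1_x_at, which share a target, rose by 1.01 ± 0.15 and 1.11 ± 0.14. In morphants these 4 rose by 1.24, 1.5, 1.82 and 1.72, in that order. krt1-19d also passed in controls (1.48 ± 0.50, limma adjusted p 0.0491), but that call was lost in 16 of the 18 fits that left out 1 array.

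Fewer members fell. The krt4 probe set Dr.4387.4.A1_at went from 2.58, 3.30 and 3.32 to -3.51, -1.04 and -1.56 in controls and from 4.03, 3.39 and 3.25 to 1.92, -3.37 and -0.53 in morphants. Its falls were 5.10 ± 1.04 and 4.21 ± 1.04 log2, with the later means under the level for testing. Its mean over all arrays, 0.73, passed the filter mainly through its 36-hour values (means of 3.07 and 3.55). The filter thus favoured a fall, and the calls are no separate support for one. It was tested in 12 of the 18 fits that left out 1 array. The second fall was lost without replicate 2 of the 60-hour morphants. The 2 brightest krt4 probe sets differed by -0.09 and -0.04 in controls. They ranked between 4 and 69 in signal on the arrays, where quantile normalisation leaves little room for a difference. How far differences are compressed at such levels was not tested. cyt1 Dr.24292.3.A1_a_at fell by 1.49 ± 0.27 in controls and 1.36 ± 0.27 in morphants, and cyt1 Dr.24292.1.S1_x_at fell by 0.28 ± 0.08 in controls (limma adjusted p 0.0203). That last call was lost without replicate 2 of the 60-hour controls (-0.24, limma adjusted p 0.0822) and without replicate 2 or 3 of the 36-hour controls (-0.25 and -0.21, 0.0667 and 0.0908).

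In all, 8 members rose and 3 fell in controls between 36 and 60 hours, where 9.57% of tested probe sets were called higher and 8.40% lower. Without replicate 1 of the 36-hour controls 14 members passed in controls, and without replicate 2 of the 60-hour controls 9 did. In morphants 9 rose and 2 fell, where the array gave 11.8% in all, 6.86% higher and 4.98% lower. Of these, 7 rises and 2 falls were in both. The falls include krt4 Dr.4387.4.A1_at, which passed the filter mainly through its 36-hour values. In morphants the rises beyond those named were Dr.1361.1.S1_at, similar to human keratin 15 (1.15, limma adjusted p 0.0372), and Dr.12425.6.S1_x_at (0.81, 0.0455). Of the 18 fits that left out 1 array, 5 lost the first of these calls and 13 the second. The quartiles of the 34 changes were -0.22 and 0.99 in controls and -0.23 and 0.98 in morphants. Their median was 0.13 in controls and -0.02 in morphants, against -0.017 and -0.019 over all tested probe sets. The 3 members lower in morphants at 36 hours were also the 3 with the largest rises in both. These comparisons share their 36-hour arrays and do not bear on each other as separate evidence.

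The changes fell in different intervals. From 36 to 48 hours 14 members changed in controls (7 rose and 7 fell, with 22.6% called on the array) and 15 in morphants (9 rose and 6 fell, 15.7%). From 48 to 60 hours 13 changed in controls (9 rose and 4 fell, 26.4%) and 1 in morphants (0.955%), cyt1 Dr.24292.6.A1_at, which rose by 1.58. For krt15 the controls read 2.06 to 2.35 at 48 hours and 4.11 to 4.90 at 60 hours, and the morphants read 3.47 to 3.93 at 48 hours and 3.19 to 4.0 at 60 hours. Its difference between morphants and controls at 48 hours (1.51, limma adjusted p 0.138) and the change in that difference to 60 hours (-2.51 ± 0.61, 0.268) did not pass. The 48-hour difference of krt15 was called with only the 48-hour arrays fitted, and without replicate 1 or replicate 2 of the 36-hour controls. krt5 rose from 36 to 48 hours by 0.64 ± 0.15 in controls and 0.65 ± 0.15 in morphants.

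A fall to 48 hours and a rise to 60 hours, both called, occurred in 3 members in controls, against 6.14% of all tested probe sets. They were krt1-19d, Dr.9236.1.A1_at and Dr.9236.2.A1_a_at, the last 2 similar to human keratin 17 and chosen here after their values were seen. Dr.9236.2.A1_a_at read 4.29, 2.98 and 3.77 at 36 hours, 0.29, 0.75 and 1.56 at 48 hours and 3.57, 3.59 and 2.76 at 60 hours. In morphants it fell to 48 hours by 1.52 ± 0.44 (limma adjusted p 0.024), and its later difference of 0.94 did not pass.

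The probe sets of some clusters shared a sign at a given time, and those of others did not. Of the 5 described as cyt1, 3 lay above 0 and 2 below at 36 hours, from -0.08 to 1.38 log2, and 1 passed. The 7 of cluster Dr.12425 all lay below 0 at 36 hours, from -0.46 to -0.11, and none passed. At 48 hours 6 of these 7 lay above 0. The 3 of cluster Dr.9236 lay below 0 at 36 and 60 hours, and none passed.

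The type I keratin cki (Dr.24216.1.S1_at) had the largest spread between arrays of a group of all 11626 tested probe sets, with a pooled SD of 3.57 log2 against a median of 0.36. It was singled out after its values were seen. At 36 hours it read 8.70, 9.07 and 0.20 in controls and 8.74, 9.19 and 1.38 in morphants, replicates 1, 2 and 3 in that order. At 60 hours it read 1.35, 6.60 and 9.08 in controls and 1.38, 7.21 and 9.11 in morphants. At 48 hours all arrays lay between 2.03 and 3.16. The arrays of a group thus spanned up to 8.87 log2, whereas a control and a morphant array of the same time and number differed by at most 1.18.

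The deposited standard errors of cki were 0.14 to 0.16 on the 4 high arrays at 36 hours, and 5.81 and 4.27 on the low control and morphant array. The low readings therefore have large errors. With same-numbered arrays of a time as a block, morphants differed from controls by 0.45 log2 at 36 hours and -0.63 at 48 hours, each ± 0.23, which did not pass (limma adjusted p 0.341 and 0.275). At 60 hours, without a block, the difference was 0.22 ± 2.37 (limma adjusted p 0.969). The next largest spread among members was 1.39, that of krt4 Dr.4387.4.A1_at.

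Genes of the epidermis and of other tissues were set beside the members. With 0.181%, 0.568% and 0.920% of tested probe sets called at 36, 48 and 60 hours, lists this short would hold few calls in any case. By limma, 0 of the 10 tested periderm and surface epithelium genes passed at any time, with 0, 0 and 4 at an unadjusted p under 0.05 at 36, 48 and 60 hours. Of the 4 basal epidermis and hemidesmosome genes 0 passed (2, 1 and 2 unadjusted), and of the 5 notochord genes 0 passed (2, 0 and 1 unadjusted). The share of all tested probe sets under the unadjusted level was not computed, so the unadjusted counts are no result about these lists. Of 21 desmosome and linker genes 1 could be matched by name to a probe set, and it did not pass. Of the 4 tested ionocyte genes, atp1b1b, a subunit of the sodium pump, was higher in morphants at 60 hours (1.14 ± 0.24, limma adjusted p 0.0348). Between 36 and 60 hours in controls, tfap2a and gata3, transcription factors of the ectoderm, rose by 0.87 ± 0.16 and 0.68 ± 0.20, and agr2 and cd9b fell by 0.47 and 0.50. ctslb, a protease of the hatching gland, fell by 3.13 ± 0.27 in controls and 3.99 ± 0.27 in morphants. Other context genes also changed in controls over this time, where 9.57% of tested probe sets were called higher and 8.40% lower. In the notochord list 2 of 5 tested genes rose and 1 fell, and in the fin fold list 1 of 4 rose and 1 fell. Of the 9 other intermediate filament genes 2 fell. The largest of these changes was that of matn1 in the notochord list, a rise of 5.82 ± 0.67 (limma adjusted p 1.33e-05).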

How the data were processed

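Whole-embryo RNA was hybridised to 1-colour Affymetrix zebrafish arrays. The authors estimated log2 expression per array, with a standard error, by mmgMOS of the puma package, per the file names and the deposited text file. The base of the log is taken from that package. The deposited log2 values were not normalised between arrays. The authors also deposited log2 ratios with a score, the probability of a positive ratio (pumaDE). Array design files and versions are not given in the sources used here.

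Here values were quantile normalised without 115 control probe sets, and 11626 probe sets with means above the 25th percentile were fitted in limma 3.58.1 (R 4.3.3). The fit used 6 group means, eBayes with an intensity trend and Benjamini-Hochberg adjustment. The fit was tested on simulated data. Residual degrees of freedom were 12. Precision is limited by how many arrays there are: the median SE of a difference was 0.28 log2. Names came from the files' descriptions, Entrez numbers and clones, through RefSeq. Only 4257 probe sets received a gene name, so a listed gene without a match may still be on the array.

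Members and gene lists were chosen with earlier results of these data known. Named were krt15, krt1-19d, members called between morphants and controls, the 10 highest means, the 8 largest called rises and falls with time, and some called members of the context lists. Lists held other keratins by symbol, desmosome, basal epidermis, periderm, ionocyte, intermediate filament, notochord, hatching gland and fin fold genes. Same-numbered arrays of a time correlated in their deviations at 0.105, 0.138 and 0.271 (36 hours), 0.183, 0.197 and 0.177 (48 hours) and 0.164, -0.064 and 0.269 (60 hours), so the titles' numbers were taken as pairs at 36 and 48 hours. Alternatives were other normalisations, filters, weights, samples in the fit, blocks and each array left out. No sequence was used here.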

Additional observations from a re-analysis of the deposited data

Results flagged for a closer look

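For krt1-19d the difference between morphants and controls was not the same at the 3 times (F-test, limma adjusted p 0.0179): it was 1.23, 4.19 and -1.08 log2 at 36, 48 and 60 hours. For krt15 it was -2.84, 1.51 and -1.0 log2 (F-test, limma adjusted p 0.018). Leaving out 1 array at a time lost the first call in 9 and the second in 10 of 18 fits. The 48-hour control mean of krt1-19d, -2.7, and the 36-hour morphant mean of krt15, -1.49, were under the level for testing. Both members were picked with their earlier results known, so these tests are not independent evidence for them.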

How the results depend on the processing

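With values as deposited, 0, 1 and 0 members passed between morphants and controls at 36, 48 and 60 hours, 0 between times and 7 from 36 to 60 hours in morphants, and the 48-hour and 60-hour medians turned to -0.21 and 0.04. With arrays centred on their medians, 1 passed at 60 hours and 7 from 36 to 60 hours in controls, the medians were -0.47, 0.48 and -0.46, and cyt1 Dr.24292.1.S1_x_at turned to -0.06 at 60 hours. The medians of all probe sets were then -0.12, 0.12 and -0.11, against 0.18, -0.57 and 0.39 as deposited. With weights from the standard errors, 0, 0 and 5 passed, and 0 between times. With only the arrays compared, 0 passed at 36 hours and 4 at 48 hours, with 0 of these 4 shared with the reported call, krt1-19d. The 4 were Dr.12425.2.S1_a_at, Dr.12425.5.S1_at, Dr.12425.6.S1_x_at and krt15. In these fits krt15 at 36 hours and krt1-19d at 48 hours lay under the filter and were not tested. With a filter at the median, 0 passed at 48 hours and 0 between times, but krt15 and krt1-19d lay under this filter and were not tested. With no intensity trend, 0 passed at 60 hours and 0 between times. With a replicate block over all arrays, or within each time (chosen after seeing the data), 2 passed at 48 hours. Within each time, 5 passed at 36 hours and 3 between times. At 60 hours 3 passed (Dr.24899.1.A1_at the one gained, limma adjusted p 0.0248), where the arrays numbered 2 do not pair by their correlation (-0.064). Over the array, the block within each time moved the calls from 21 to 24, 66 to 93 and 107 to 182 at 36, 48 and 60 hours, and from 3 to 6 between times. Neither block ended a reported call of a member between morphants and controls. Leaving out 1 array at a time gave 3 to 5, 1 to 3 and 0 to 5 members at 36, 48 and 60 hours, 0 to 4 between times, 8 to 14 in controls and 8 to 13 in morphants from 36 to 60 hours, with medians of -0.24 to -0.08, 0.10 to 0.16 and -0.21 to -0.05. The calls over all tested probe sets moved too: 12 to 293, 21 to 171 and 10 to 700 at 36, 48 and 60 hours, and 0 to 23 between times. From 36 to 60 hours they were 1462 to 3133 in controls and 839 to 1975 in morphants. The cyt1 call Dr.24292.5.S1_at at 36 hours was lost in 11 of 18 such fits (limma adjusted p 0.0159 to 0.201). Over the 31 results for single members, 699 values kept the result, 128 kept direction but lost the call, and 1 turned. The authors' deposited ratios carry no call and count here by direction alone, and the F-tests count by call alone. Fits in which a member lay under the filter are not in these counts. Causes were not tested. Levels near or under 0.62 have large deposited standard errors, which limits krt15, krt1-19d, cki and the 36-hour morphant level of Dr.24899.1.A1_at.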

Other observations

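Among all other tested probe sets, those whose deviations from their group means followed cki most closely over the 18 arrays were found after the values of cki were seen. vcanb, a proteoglycan gene, had Pearson's r of 0.907. At 36 hours it read 3.81, 3.83 and 2.87 in controls and 3.82, 3.91 and 3.07 in morphants. epas1b, which encodes a hypoxia-inducible factor subunit, had r of 0.897, with 2.1, 2.43 and 1.16 in controls and 2.34, 2.39 and 1.35 in morphants at 36 hours. In both genes replicate 3 was lowest in both kinds of embryo at 36 hours, and replicate 1 was lowest in both at 60 hours, with steps far smaller than those of cki. The arrays share their RNA preparations and scale, so these correlations are descriptions.

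Another type I keratin gene, krt99 (Dr.1923.1.S1_at), is on the array without the word keratin in its description. It differed by -0.18, -1.04 and -0.38 log2 between morphants and controls at 36, 48 and 60 hours (limma adjusted p 0.878, 0.425 and 0.673).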
